A study of Mus musculus with 6 samples.

Results

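The genes described here encode 9 receptors through which hormones and nutrients act on islet cells: Glp1r, Gipr, Gcgr, Ffar1, Sstr2, Npy1r, Adra2a, Prlr and Ghr. They were read from the probe sets whose single gene symbol in the array annotation is one of these names. Of the 9 genes, 6 had such a probe set (9 probe sets in all), out of 18194 genes measured. Where a gene had several, the brightest by mean over all arrays represents it. Ffar1, the receptor for long-chain fatty acids, Adra2a, an adrenaline receptor, and Prlr, the prolactin receptor, were not analysed here.

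The tissue was the whole pancreas, taken at postnatal day 15 from mice of the NMRI strain and measured on 6 Affymetrix arrays. The 3 Prox1-OE samples carried Jojo-Prox1, a construct for overexpression of the homeobox factor Prox1, together with Ngn3-cre, and the 3 control samples carried Ngn3-cre alone. Ngn3-cre is thus shared by both groups, and Ngn3 is a gene of endocrine progenitors, so recombination is directed to the endocrine lineage while the RNA comes from the entire organ. Whether replicates were taken from different animals is not stated in the labels, and p-values therefore measure only the spread between these arrays, which may be technical. The study asked which genes differ when Prox1 is overexpressed in beta cells, and the comparison here is Prox1-OE against control for the receptors.

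Islet cells adjust hormone release to signals from the gut, from neighbouring islet cells, from nerves and from the pituitary. The receptors for GLP-1, GIP and glucagon couple to Gs and raise cyclic AMP, which strengthens glucose-stimulated insulin secretion in beta cells. Receptors for somatostatin, neuropeptide Y and adrenaline couple to Gi and lower cyclic AMP, which restrains secretion. The growth hormone and prolactin receptors belong to the cytokine receptor family and signal through the kinase JAK2 to the transcription factor STAT5, a route known for its part in beta cell growth.

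None of the 6 measured receptors passed the threshold of an adjusted p of 0.05 over all genes, and Sstr2 and Glp1r were the receptors that read lower in Prox1-OE pancreas with no overlap between the groups. Sstr2, the somatostatin receptor that in mouse islets is prominent on alpha cells, was 0.816 times its control level (95% interval 0.702 to 0.948). Glp1r, the receptor for GLP-1, was 0.825 times its control level (95% interval 0.689 to 0.987). For Gcgr, Gipr, Npy1r and Ghr the groups overlapped, and the log2 differences lay between -0.10 and 0.05. The promoters of Sstr2 and Glp1r are shown because these are the receptors whose groups did not overlap. They are the 250 bases before each gene's start, from RefSeq on GRCm38.p6, chr11:113619077-113619326 on the plus strand for Sstr2 and chr17:30901617-30901866 on the plus strand for Glp1r. Capitals mark matches to the motifs searched.
Sstr2 promoter: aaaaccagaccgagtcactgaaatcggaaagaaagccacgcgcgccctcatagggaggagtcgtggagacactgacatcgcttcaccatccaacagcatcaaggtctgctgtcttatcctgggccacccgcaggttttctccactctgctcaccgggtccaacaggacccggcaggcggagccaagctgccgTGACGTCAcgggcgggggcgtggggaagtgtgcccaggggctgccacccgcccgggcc
Glp1r promoter: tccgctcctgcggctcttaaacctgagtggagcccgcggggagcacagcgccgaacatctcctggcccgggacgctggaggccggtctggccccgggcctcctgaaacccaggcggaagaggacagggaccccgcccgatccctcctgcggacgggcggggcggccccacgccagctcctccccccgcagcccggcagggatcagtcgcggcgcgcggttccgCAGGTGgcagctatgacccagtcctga

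The motifs searched, on both strands, were the cyclic AMP response element TGACGTCA, its core TGACG, the TATA box TATAAA, the E-box CANNTG and the homeodomain core TAATTA. The Sstr2 window held TGACGTCA with its first base at position -58, counted from -1 at the base before the start. Both matches to the core TGACG in that window overlap this element. Of all 32851 promoter windows of the same length, 1.55% held TGACGTCA and 17.8% held TGACG. The Glp1r window, with a GC content of 73.2% against 63.6% for Sstr2, held an E-box at position -27, and 66.2% of all windows held an E-box. TATAAA, found in 12.4% of all windows, and TAATTA, found in 4.84%, were in neither. Of the other measured receptors, the Gcgr window held none of these letters, the Npy1r window held 1 E-box, and the 2 Ghr windows together held 1 TATA box and 1 E-box. A match describes the letters of the window and does not show a site in use.

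On the scale of the arrays, 3 of the 6 receptors had a mean above the median of all probe sets, which lay at 4.39 on the log2 scale. These were Ghr, at percentile 96.7 of all probe sets, Sstr2 at percentile 76.8 and Gcgr at percentile 65.9, each above the median of every array. Glp1r (percentile 44.3) had a mean below the median and exceeded it on 1 array, control replicate 1. Gipr (26.5) and Npy1r (17.1) were below the median on all arrays. Brightness depends on the probes as well as on the transcript, so the percentiles place each probe set within the arrays and do not rank the receptors by abundance. The deposited values carry no detection calls, and small differences at the dim end, where Glp1r, Gipr and Npy1r lie, are flattened by RMA.

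**Figure D1:**
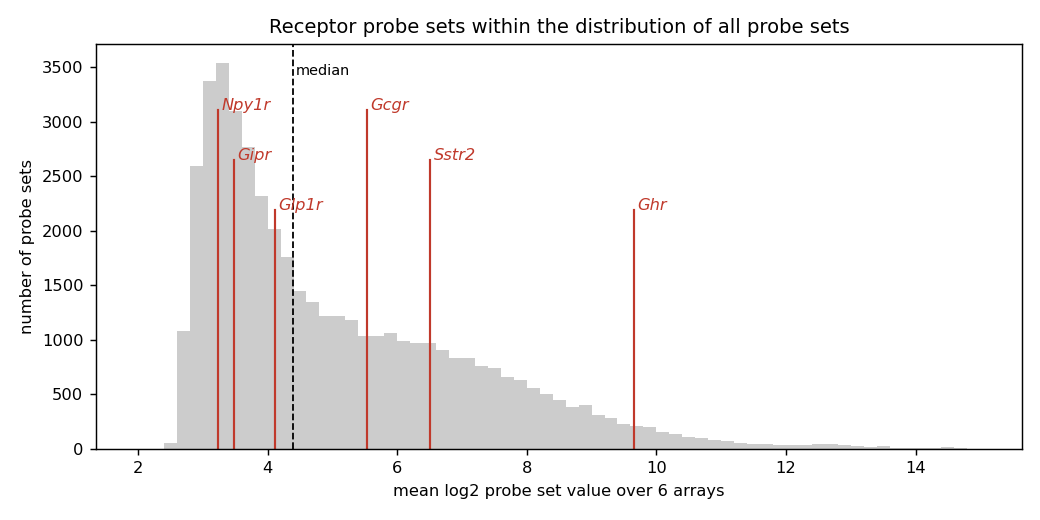
Histogram of the mean log2 value over 6 arrays (x axis) of all 45101 probe sets (y axis, number of probe sets), with the probe set that stands for each receptor marked by a red line and the median by a dashed line. Npy1r, Gipr and Glp1r lie left of the median, and Gcgr, Sstr2 and Ghr lie to its right.

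Sstr2 read 6.25, 6.42 and 6.43 on the log2 scale in Prox1-OE pancreas, against 6.75, 6.59 and 6.63 in control. All 3 Prox1-OE arrays lay below all 3 controls, with a gap of 0.16 between the groups. The means were 6.37 ± 0.10 in Prox1-OE and 6.66 ± 0.09 in control (SD, n = 3 each). Limma gave a log2 difference of -0.29 ± 0.09 (SE, unadjusted p = 0.0142, limma adjusted p = 0.690). Without any single array the difference stayed between -0.33 and -0.24, with limma adjusted p between 0.631 and 0.964.

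Glp1r read 3.99, 3.85 and 4.08 in Prox1-OE, against 4.44, 4.17 and 4.14 in control. The groups were separated by a gap of 0.06, smaller than the spread within either group, and control replicate 1 was the highest array. The means were 3.97 ± 0.12 in Prox1-OE and 4.25 ± 0.17 in control (SD, n = 3 each). The log2 difference by limma was -0.28 ± 0.11 (SE, unadjusted p = 0.0387, limma adjusted p = 0.740). Without control replicate 1 the difference was -0.18, and over all fits that left out 1 array it ran from -0.33 to -0.18.

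Gcgr, the glucagon receptor, read 5.52, 5.77 and 5.30 in Prox1-OE, against 5.41, 5.72 and 5.49 in control. Replicate 2 was the highest array of each group, and the lowest array of all was Prox1-OE replicate 3. The log2 difference was -0.01 ± 0.14 (SE, limma adjusted p = 0.994), with a 95% interval of -0.33 to 0.31, so that a change by a fold of 0.796 or 1.24 lies at the edge of what 3 arrays per group allow. Leaving out Prox1-OE replicate 3 gave a difference of 0.10, and leaving out control replicate 2 gave 0.08.

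Gipr, which binds the gut hormone GIP, read 3.49, 3.54 and 3.49 in Prox1-OE, against 3.37, 3.53 and 3.45 in control. The values spanned a narrow range near the bottom of the arrays. Its log2 difference of 0.05 ± 0.08 (SE, limma adjusted p = 0.928, 95% interval -0.14 to 0.25) was the 1 positive difference among the 6 receptors.

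Npy1r, a receptor for neuropeptide Y and peptide YY, had 2 probe sets, both dim, whose differences had opposite signs. The brighter of them read 3.19, 3.15 and 3.20 in Prox1-OE, against 3.28, 3.14 and 3.43 in control, and differed by -0.10 ± 0.10 (SE, limma adjusted p = 0.865). The other read 3.19, 3.26 and 3.31 in Prox1-OE, against 3.15, 3.14 and 3.09 in control, and differed by 0.12 ± 0.09 (limma adjusted p = 0.833 over all probe sets). In the brighter set the groups overlapped and control replicate 3 was the highest array. Without that array the other set has the higher mean and stands for the gene, and the difference turned to 0.11. In the dimmer set the Prox1-OE arrays lay above the controls. The mean of both sets differed by 0.01, so no direction can be given for Npy1r.

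**Figure D2:**
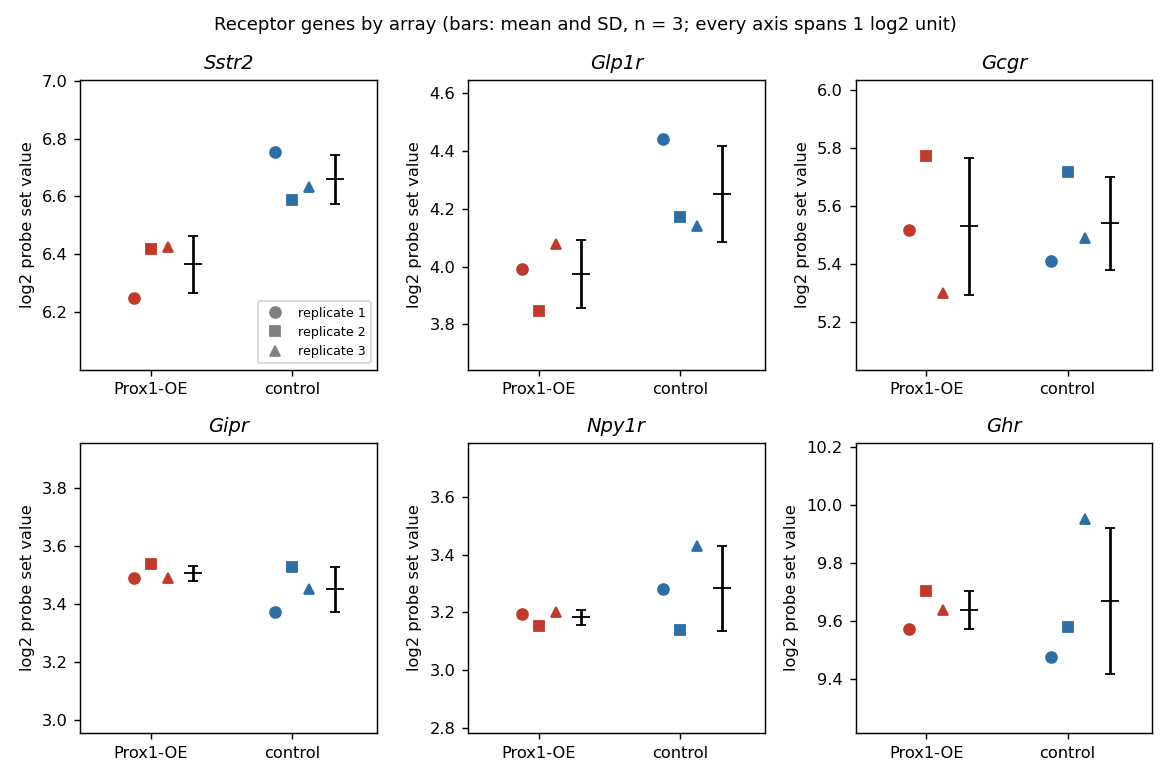
Log2 probe set value (y axis, 1 log2 unit per panel) of each receptor on the Prox1-OE arrays (red) and the control arrays (blue), with marker shape for the replicate and black bars for mean and SD (n = 3). Sstr2 and Glp1r are the panels in which all Prox1-OE points lie below all control points, and in Ghr and Npy1r control replicate 3 is the highest point.

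Ghr, the growth hormone receptor, was the brightest probe set of the 6 and had 3 probe sets. It read 9.57, 9.71 and 9.64 in Prox1-OE, against 9.48, 9.58 and 9.95 in control. The Prox1-OE arrays lay within the range of the controls, and control replicate 3 stood above the rest. The log2 difference was -0.03 ± 0.13 (SE, limma adjusted p = 0.978, 95% interval -0.33 to 0.27), and it was 0.11 without control replicate 3 and 0.00 without Prox1-OE replicate 1.

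The second Ghr probe set read 8.24, 8.12 and 8.33 in Prox1-OE, against 8.16, 8.17 and 8.82 in control, a difference of -0.16 ± 0.17 (SE, limma adjusted p = 0.901 over all probe sets). The dimmest read 6.58, 6.81 and 6.71 in Prox1-OE, against 6.89, 6.71 and 7.07 in control, a difference of -0.19 ± 0.12 (adjusted p = 0.817). Control replicate 3 was the highest array for all 3 Ghr probe sets. The annotation used here does not tie the probe sets to transcript forms of Ghr, which include a secreted binding protein, so the sets were not assigned to the full receptor or to that form.

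**Figure D3:**
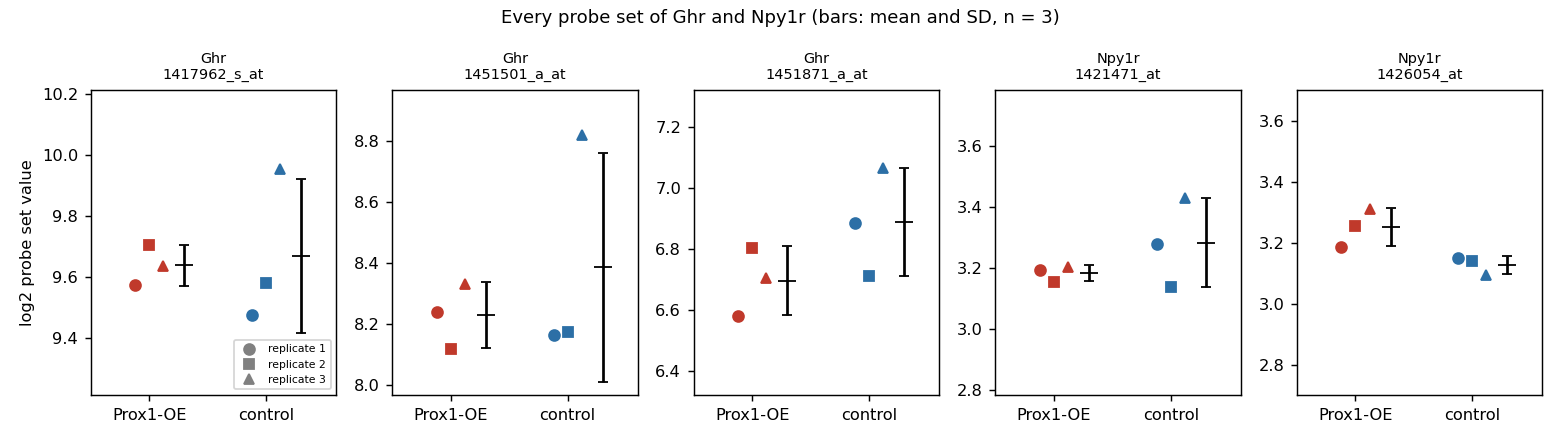
Log2 value (y axis, 1 log2 unit per panel) of every probe set of Ghr and Npy1r on the Prox1-OE arrays (red) and the control arrays (blue), with black bars for mean and SD (n = 3). Control replicate 3 is the highest point in all 3 Ghr panels, and the Npy1r panels differ in direction.

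Read as a group, 5 of the 6 measured receptors had a negative difference, where 53.8% of all genes did, and their median difference was -0.06, where that of all genes was -0.01. The 5 include Npy1r, whose probe sets disagree, and without control replicate 3 the count is 3 of 6. By limma, 0 of the 6 passed an adjusted p of 0.05, where 0.0275% of all genes did (0.022% higher and 0.0055% lower in Prox1-OE, 5 genes in all). At an unadjusted p under 0.05, 2 of the 6 were lower, where 3.7% of all genes were, and 0 were higher, where 2.94% of all genes were. The groups did not overlap, with Prox1-OE lower, for 2 of the 6, where this held for 7.02% of all genes, and with Prox1-OE higher for 0, where it held for 5.05%. These 6 genes were chosen with earlier results of the same arrays known and Sstr2 had already been seen to read lower, so the counts describe the genes and are no test of them.

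Beta cell markers read lower together with Sstr2 and Glp1r, and so did 5 of the 6 markers shared by all endocrine cells. Alpha cell markers overlapped between the groups, and most markers of delta, PP and epsilon cells read higher. Fewer cells of a type and less RNA per cell cannot be told apart in whole pancreas. The beta cell markers, 8 of 10 measured, all had a negative difference, where 53.8% of all genes did. Of the measured markers 7 were above the array median, where 11472 of all 18194 genes were. Of that list 0 passed the adjusted threshold by limma, where 0.0275% of all genes did. For 5 of its genes the Prox1-OE arrays lay below all controls, where this held for 7.02% of all genes. Sizes varied within that list, from -1.40 for G6pc2 and -1.23 for Slc2a2 to -0.22, -0.18 and -0.15 for Pdx1, Ins2 and Iapp, whose groups overlapped. The mean of that list, relative to its mean over the controls, was -0.52, -0.68 and -0.81 on the Prox1-OE arrays, against 0.27, -0.01 and -0.25 on the controls, so that the groups did not overlap. The list of 6 genes shared by all endocrine cells, with 5 negative, stood at -0.39, -0.31 and -0.41 in Prox1-OE, against 0.28, 0.03 and -0.31 in control, where control replicate 3 lay beside the Prox1-OE arrays. Chga, the granule protein chromogranin A, weighed most in that mean, as it fell by 1.51 (SE 0.14, limma adjusted p = 0.0217) while the other 5 members differed by -0.28 to 0.11 and did not pass. Control replicate 1 was the highest array for both lists, for Sstr2 and for Glp1r. The alpha cell markers, 3 of 5 measured, stood at -0.25, 0.03 and -0.03 in Prox1-OE, against 0.26, -0.07 and -0.19 in control, and these groups overlapped. The list of delta, PP and epsilon cells, 6 of 6 measured, went the other way: 5 members had a positive difference, and the list stood at 0.83, 0.32 and 0.34 in Prox1-OE, against 0.22, -0.11 and -0.11 in control, with no overlap. Its members Rbp4, a retinol carrier, and Ppy weighed most in these values. Rbp4 rose by 1.43 ± 0.14 (SE, limma adjusted p = 0.0247) and Ppy by 1.29 ± 0.38 (limma adjusted p = 0.690). Pyy, Sst and Hhex differed by 0.22, 0.19 and 0.05 with overlapping groups. Ghrl differed by -0.21, with the Prox1-OE arrays below all controls. The part of endocrine cell content in the values of Sstr2 and Glp1r was not tested.

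Of 9 acinar cell markers 7 were measured, all above the array median, as the label whole pancreas implies. Other tissue in the organ varied between arrays. The mean of the B cell markers stood at 1.58, 0.33 and 0.59 in Prox1-OE, against 0.05, -0.01 and -0.04 in control. Its members disagreed: Ms4a1, Ighm and Cd79b differed by 2.26, 1.44 and 0.64, and Pax5 and Cd79a by -0.10 and -0.07. Macrophage markers stood at 0.78, 0.27 and 0.29 in Prox1-OE, against 0.10, 0.01 and -0.12 in control. Of these 6 genes 5 had a positive difference, from 0.50 to 0.62, and C1qa differed by -0.13. The groups overlapped for C1qa and Csf1r. Prox1-OE replicate 1, the highest array for both immune lists, was the lowest array for Sstr2. Without it the Sstr2 difference was -0.24 and the Glp1r difference -0.29. Both immune lists were also higher on the other Prox1-OE arrays than on any control. The part of immune cells in the values of Sstr2 and Glp1r was not tested. Fat cells also make Ghr. The mean of the adipocyte markers overlapped between the groups (0.65, 0.55 and -0.31 in Prox1-OE, against 0.20, 0.13 and -0.33 in control). Adipoq weighed most in it, with a difference of 0.87, against 0.24 for Fabp4, 0.04 for Lep and 0.03 for Cidec. Control replicate 3 was the highest array for Ghr and the lowest for the adipocyte list. The part of fat in the Ghr values was not tested. The brightest of 3 Prox1 probe sets read 5.30, 4.98 and 5.31 in Prox1-OE, against 5.61, 4.90 and 4.90 in control. Differences of 0.06, -0.03 and 0.02 over the 3 sets (limma adjusted p of 0.972 to 0.988 over all probe sets) showed no higher Prox1 in the samples labelled Prox1-OE. Whether these sets lie within the construct's transcript is not known here, and they therefore do not check the labels. As a gauge of RNA integrity, the log2 signal of the 3' probe sets for Gapdh and beta-actin exceeded that of the 5' ones by 0.93 ± 0.01 on Prox1-OE arrays and by 0.95 ± 0.04 on control arrays (SD, n = 3 each). A two-sided exact permutation test gave p = 0.7, and 3 against 3 arrays cannot go below 0.1. Pearson correlations between arrays ran from 0.988 to 0.994.

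**Figure D4:**
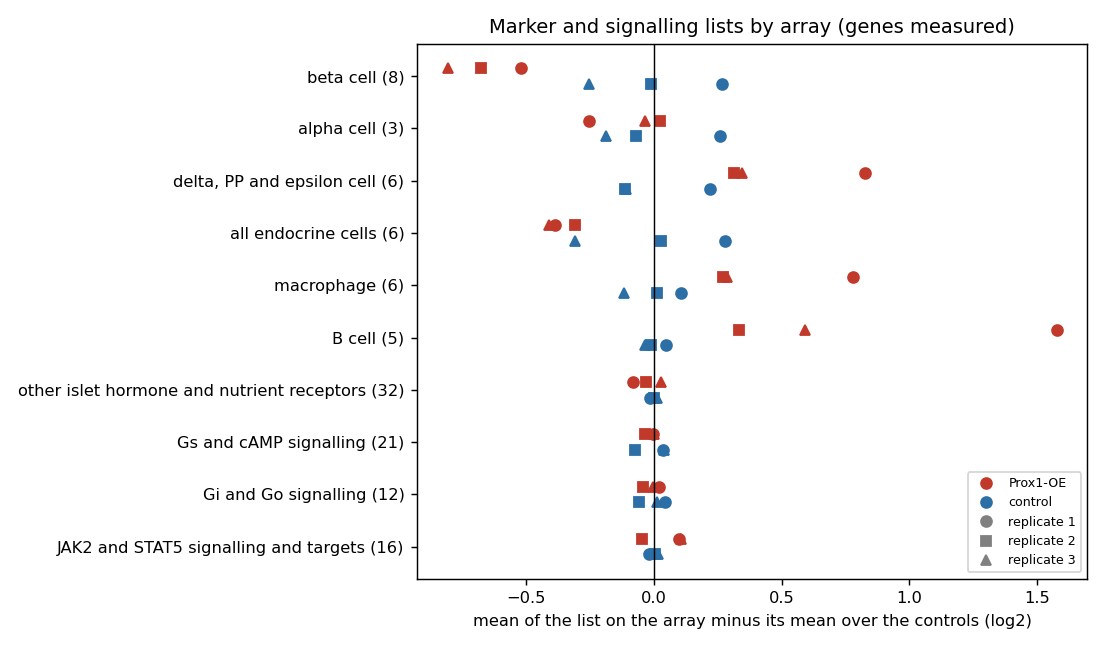
Mean log2 value of each marker or signalling list on an array minus the mean of that list over the controls (x axis), for Prox1-OE arrays (red) and control arrays (blue), with the number of measured genes in parentheses. The beta cell list lies lower on all Prox1-OE arrays (-0.81 to -0.52) than on the controls (-0.25 to 0.27), the delta, PP and epsilon list lies higher, and the signalling lists lie near 0.

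Of 40 other receptors known in islet physiology, 32 were measured, and 0 passed the adjusted threshold by limma or an unadjusted p of 0.05. Over all genes, 0.0275% passed the adjusted threshold, and at an unadjusted p under 0.05, 3.7% were lower and 2.94% higher. These receptors had a median difference of -0.04, where that of all genes was -0.01. Of them 21 were negative, where 53.8% of all genes were. For 3 the Prox1-OE arrays lay all below the controls, where this held for 7.02% of all genes. They lay all above for 0, where this held for 5.05%. Among the leading ones, Oxtr, the oxytocin receptor, read 4.09, 4.25 and 4.38 in Prox1-OE, against 4.43, 4.43 and 4.55 in control (log2 difference -0.23 ± 0.10 SE, limma adjusted p = 0.753). Vipr1, a Gs-coupled receptor for vasoactive intestinal peptide, differed by -0.39 ± 0.18 (adjusted p = 0.753), with Prox1-OE replicate 1 the lowest array at 4.89. Lepr, the leptin receptor, differed by 0.69 ± 0.35 (adjusted p = 0.766) and was set apart by Prox1-OE replicate 1, at 6.58, while the other Prox1-OE arrays read 4.96 and 5.59 and the controls 4.91, 5.24 and 4.92.

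The relatives of Sstr2 did not share its sign throughout. Sstr1, Sstr4 and Sstr5 differed by 0.04, 0.15 and 0.18 on the log2 scale and Sstr3 by -0.10, all with overlapping groups. In the neuropeptide Y receptor family, Npy2r differed by -0.17, Npy5r by -0.11 and Npy4r, the receptor for pancreatic polypeptide, by -0.25 ± 0.12 (SE, limma adjusted p = 0.766). Npy4r read 4.88, 5.32 and 5.23 in Prox1-OE, against 5.38, 5.44 and 5.37 in control, with no overlap. Its ligand gene Ppy read 9.99, 8.64 and 8.24 in Prox1-OE, against 7.71, 7.52 and 7.75 in control, a difference of 1.29 ± 0.38 (limma adjusted p = 0.690). Prox1-OE replicate 1 was thus the highest array for Ppy and the lowest for Npy4r.

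**Figure D5:**
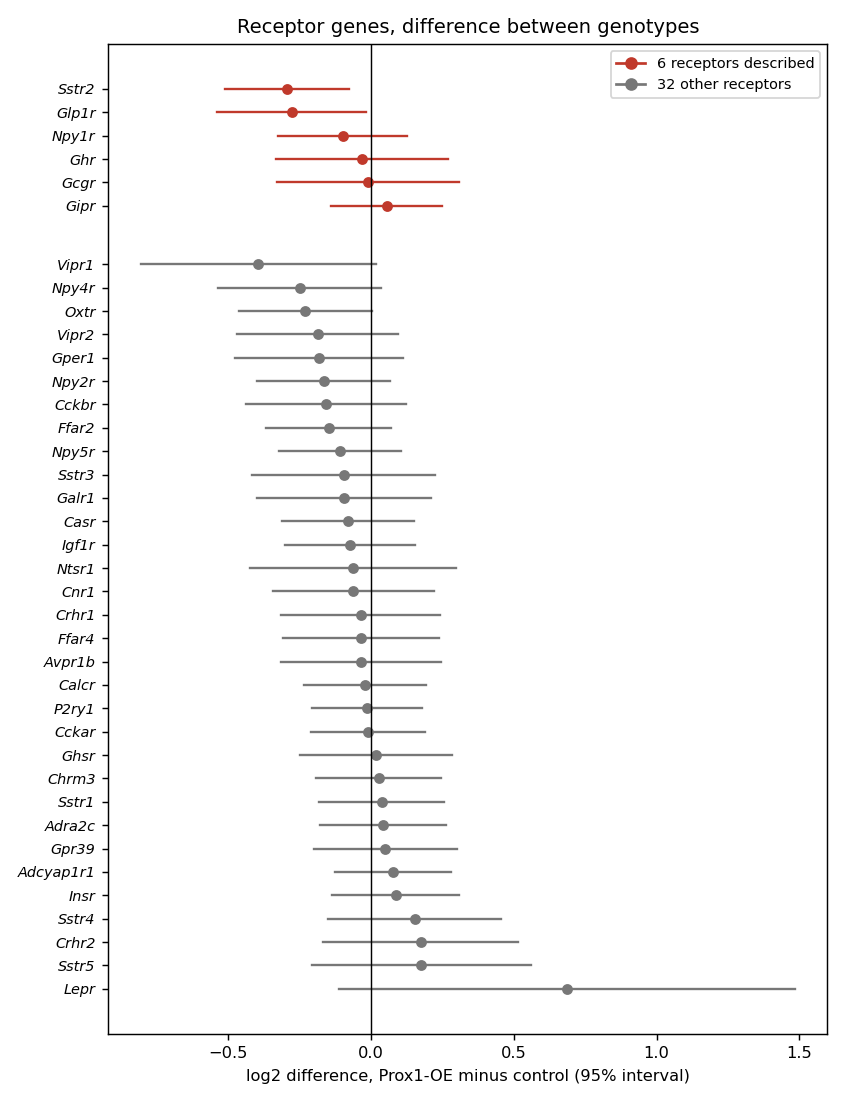
Log2 difference, Prox1-OE minus control (x axis), with its 95% interval from limma, for the 6 receptors described (red) and the 32 other receptors measured (grey). The intervals of Sstr2 (-0.51 to -0.08) and Glp1r (-0.54 to -0.02) lie below 0 before adjustment, and those of all other receptors shown include 0.

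Among the 13 ligand genes of these receptors, 11 were measured, with 6 positive and 5 negative differences. Of them 0 passed the adjusted threshold, where 0.0275% of all genes did. At an unadjusted p under 0.05 in the limma fit, 1 was higher (Ppy), where 2.94% of all genes were. By the same measure 1 was lower (Gip), where 3.7% of all genes were. Gip, the gut hormone that binds Gipr, read 4.10, 4.12 and 4.26 in Prox1-OE, against 4.73, 4.29 and 4.37 in control (log2 difference -0.30 ± 0.13 SE, limma adjusted p = 0.748). Sst, the ligand gene of Sstr2, averaged 8.73 ± 0.19 in Prox1-OE and 8.54 ± 0.61 in control (SD, n = 3 each). Gcg, which encodes both glucagon and GLP-1, averaged 12.56 ± 0.13 in Prox1-OE and 12.43 ± 0.48 in control (SD, n = 3 each). Both hormone genes overlapped between the groups. Dbh, the enzyme that makes noradrenaline, differed by -0.20 ± 0.10 (limma adjusted p = 0.766).

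Downstream of the Gs-coupled receptors, 21 of 22 genes of cyclic AMP signalling were measured and 0 passed by limma, either adjusted or at an unadjusted p under 0.05. Over all genes, 0.0275% passed the adjusted threshold, and at an unadjusted p under 0.05, 3.7% were lower and 2.94% higher. The cyclic AMP genes had a median difference of -0.03. The smallest p among them belonged to Prkar1a, a regulatory subunit of protein kinase A, with 0.15 ± 0.10 (SE, limma adjusted p = 0.808). Pde3b, a phosphodiesterase that breaks down cyclic AMP in beta cells, differed by -0.12 ± 0.09 (adjusted p = 0.829). Of the 12 genes of Gi and Go signalling, all measured, 0 passed the adjusted threshold. At an unadjusted p under 0.05, 1 was higher, where 2.94% of all genes were, and 0 lower, where 3.7% were. The higher gene was Rgs2, a regulator that shortens G protein signals, which read 6.67, 6.48 and 6.71 in Prox1-OE, against 6.39, 6.29 and 6.43 in control (log2 difference 0.25 ± 0.10 SE, limma adjusted p = 0.724). Of 11 measured genes of Gq and phospholipase C signalling, the route of Ffar1, 0 passed the adjusted threshold. At an unadjusted p under 0.05, 1 was higher, where 2.94% of all genes were, and 0 lower, where 3.7% were. The higher gene was Plcb4, a phospholipase C isoform (0.33 ± 0.13 SE, limma adjusted p = 0.734).

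The route of the growth hormone and prolactin receptors held the largest differences of the signalling lists. All 16 genes were measured and 0 passed the adjusted threshold by limma, where 0.0275% of all genes did. At an unadjusted p under 0.05, 2 were lower and 1 higher, where 3.7% and 2.94% of all genes were. The list as a whole had no common direction, with 10 positive and 6 negative differences and a median of 0.02. Cish, an inhibitor of cytokine signalling that STAT5 induces, read 7.27, 7.25 and 7.35 in Prox1-OE, against 7.53, 7.42 and 8.02 in control (log2 difference -0.37 ± 0.15 SE, limma adjusted p = 0.740). Socs2, another inhibitor induced by growth hormone, read 7.52, 7.47 and 7.50 in Prox1-OE, against 8.03, 7.63 and 7.67 in control, a difference of -0.28 ± 0.12 (limma adjusted p = 0.740). For both genes the Prox1-OE arrays were close together and below every control, and a different control was highest in each.

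Bcl6, a transcriptional repressor that STAT5 represses in several tissues and that germinal centre B cells also express, read 5.49, 4.87 and 5.23 in Prox1-OE, against 4.18, 4.80 and 4.02 in control. The groups did not overlap, and the log2 difference was 0.86 ± 0.22 (SE, limma adjusted p = 0.690). The mean of the B cell markers was also highest on Prox1-OE replicate 1, although Pax5 and Cd79a were not. The part of B cells in the Bcl6 value was not tested. Socs3, an inhibitor that several cytokines induce, differed by 0.33 ± 0.17 (limma adjusted p = 0.766) with overlapping groups. Ghr itself, described above, differed by -0.03.

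For the 3 receptors above the array median, the genes with the most similar pattern were sought by Pearson's r over the 6 arrays, among 11471 other genes above the median. With 6 arrays and so many genes, high values arise for any pattern: r exceeded 0.95 for 30 genes with Sstr2, 23 with Ghr and 11 with Gcgr. The nearest to Sstr2 were Sybu, which links secretory and synaptic vesicles to a motor protein (r = 0.996), Apip, an enzyme of methionine salvage (r = 0.984), and Rgs11, a regulator of G protein signalling (r = 0.983). Sybu read 7.53, 7.72 and 7.73 in Prox1-OE, against 8.03, 7.87 and 7.94 in control (log2 difference -0.29 ± 0.10 SE, limma adjusted p = 0.690). Like Sstr2, Sybu was lowest on Prox1-OE replicate 1 and highest on control replicate 1. Its difference and its order of arrays follow from its choice by likeness to Sstr2 and are no separate result.

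The nearest to Ghr were Nup93, of the nuclear pore (r = 0.996), Usp37, a deubiquitinating enzyme (r = 0.990), and Cryl1 (r = 0.987), and control replicate 3 was the highest array for each of them. The nearest to Gcgr were Tsnax (r = 0.997), Pum3 (r = 0.981) and Nol8 (r = 0.980). In these genes, as in Gcgr, replicate 2 was the highest array of each group. For the genes near Ghr and Gcgr too, the order of arrays follows from the choice by likeness.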

How the data were processed

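The deposited table holds log2 values per probe set, 1 column per array. Per the submitters' processing notes the tools were RMA and Partek 6.5, without settings. Per the labels' protocols, 100 ng of total RNA was the input for labelling. Since RMA forces arrays to a common distribution, differences in total RNA per cell are invisible. Of 45101 probe sets, 34958 had 1 gene symbol, 932 several and 9211 none. Array medians lay between 4.38 and 4.42. The number of arrays limits the precision.

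One linear model per gene over all 18194 genes, moderated with eBayes (limma 3.58.1, R 4.3.3), compared the genotypes without covariates or filtering, two-sided, at a Benjamini-Hochberg adjusted p of 0.05. The procedure was tested on simulated data. The receptors and gene lists were chosen with earlier results of these data known. Named were all receptors, up to 4 genes of each signalling, ligand or receptor list by smallest p, and the 3 genes most like each receptor above the array median. Sst, Gcg and the relatives of Sstr2 and Npy1r were chosen after their values were seen. Promoters were matched for 5 of the 6 measured receptors. Alternatives covered the choice of probe set, removal of dim genes, renewed quantile normalization, centring on medians, trended robust eBayes, weighting of arrays, a block for the replicate number, an adjusted p of 0.1 and omission of each array.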

Additional observations from a re-analysis of the deposited data

How the results depend on the processing

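With 3 arrays per group, log2 differences of the receptors carry 95% intervals that reach 0.19 to 0.32 to either side, and dim probe sets are compressed. In every setting tried, 0 of the receptors passed an adjusted p of 0.05, or of 0.1. With other probe set rules, normalizations or an array left out, 3 stayed the number above the array median. Sstr2 kept its negative sign in all settings, and so did Glp1r in all but the filter on dim genes, which leaves it out. Of 87 differences of single receptors under an alternative, 79 kept their sign and side of the threshold and 8 reversed, none of them past the threshold. Outside the fits that left out an array, the reversals were Npy1r with the mean of its probe sets (0.0121), Gcgr with arrays centred on their median (0.00857) and Ghr with array weights (0.0201). Leaving out 1 array at a time, the difference ran from -0.13 to 0.10 for Gcgr, from -0.13 to 0.11 for Ghr and from -0.17 to 0.11 for Npy1r, whose brightest probe set changes without control replicate 3. The receptors with a negative difference numbered 3 to 5 of 6 in those fits, with 3 without control replicate 3. They numbered 3 of 3 with only genes above the array median, since that filter leaves fewer receptors. The genes called over the whole table, 5 in the comparison described, numbered 0 to 4 without an array: 0 without Prox1-OE replicate 1 or Prox1-OE replicate 3, 1 without control replicate 1 or control replicate 2, 3 without Prox1-OE replicate 2 and 4 without control replicate 3. The replicate number as a block gave 2 genes. Correlations of deviations from the group means were 0.04, 0.14 and 0.11 between same-numbered samples, against -0.14 to 0.01 between the others. Same-numbered samples were thus slightly more alike, and whether the numbers pair the samples was not tested. The main fit did not pair them, and the block changed no call of a receptor. The cause of these shifts was not tested.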
